A study of Mus musculus with 17 samples.

Results

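The ErbB receptors and the ligands of the epidermal growth factor (EGF) family were followed through 17 mouse mammary tumors. The set holds 10 genes of the 28786 on the array. The receptors are Egfr, Erbb2, Erbb3 and Erbb4, and the ligands are Areg (amphiregulin), Ereg (epiregulin), Hbegf (heparin-binding EGF-like growth factor), Tgfa (transforming growth factor alpha), Btc (betacellulin) and Nrg1 (neuregulin 1). They were found by gene symbol or RefSeq identifier and took 29 of the 41174 probes. The rule used names and no measured value.

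ErbB receptors are tyrosine kinases of the cell surface that pair up when an EGF-family ligand binds. ERBB2 binds no known ligand and acts as a partner for the others, whereas ERBB3 has a weak kinase and signals through its partners. The ligands are made as membrane proteins and shed by proteases, and in the mammary gland amphiregulin signals through EGFR during duct growth while ERBB4 is known for its part in lactation.

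All mice were of the FVB strain and carried 1 of 2 transgenes, p75-CUX1 (9 tumors) or p110-CUX1 (8 tumors). Both encode shortened forms of the transcription factor CUX1 and are driven by MMTV regulatory sequences, which are active chiefly in mammary epithelium. No tumor came from a mouse without a transgene and no normal gland was profiled, and the ages of the mice were not given in the sources used here. The labels name 4 adenosquamous carcinomas (p75-47, p75-80, p75-94 and p75-101), 9 solid carcinomas (p75-129, p75-150, p75-534, p110-121, p110-143, p110-225, p110-314, p110-360 and p110-416), 2 adenomyoepitheliomas (p75-90 and p110-374), 1 adenocarcinoma (p75-216) and 1 adenoma (p110-98). The study also sorted the tumors by their Wnt genes into a high-Wnt group of 5 (p75-47, p75-80, p75-94, p110-225 and p110-374), a medium-Wnt group of 5 (p75-90, p75-129, p75-216, p110-98 and p110-121) and a low-Wnt group of 7 (p75-101, p75-150, p75-534, p110-143, p110-314, p110-360 and p110-416). This sorting was taken from the study's account and is not in the sample labels. RNA of laser-captured epithelial cells was amplified through 2 rounds and hybridized against 1 amplified pool of universal mouse reference RNA, with the dyes swapped, on 38 arrays of 2 colors. Levels below are therefore log2 ratios of tumor over reference, 1 value per tumor, except the summed levels of marker lists, which are the log2 of the list's summed quantile-normalized intensities in the color of the tumor RNA. A gene counted as measured in a tumor if its probe passed the scanner's test of being well above background, in the color of the tumor RNA, on all arrays of the tumor.

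Depth differed between tumors and bears on the members. For tumor RNA, the share of spots well above background ran from 21.5% in p110-374, 23.6% in p110-98 and 25.6% in p110-225 to 65.6% in p75-129, with medians of 40.8% in the p75 tumors and 34.1% in the p110 tumors. The scans of the p75 arrays fell in 1 year and those of the p110 arrays in another, so transgene and scan year cannot be told apart, and all 4 adenosquamous carcinomas are p75 tumors. The Cux1 probe measured in all 17 tumors lay between -2.12 and -0.32 in the p75 tumors and between -2.03 and -0.48 in the p110 tumors, so it did not separate the transgenes. The tumor labelled p110-121 went against its label of solid carcinoma in its markers. Its luminal keratins Krt8 and Krt18 stood at -4.24 and -4.82, where no other tumor was under 0.18 and -0.04, and Elf5, a luminal transcription factor, stood at 0.07 against 5.74 to 9.45 in the others. In p110-121, 2 of the 7 luminal markers and 3 of the 8 basal markers were measured, while 5 of the 7 immune markers were higher there than in any other tumor, with Lyz2, a lysozyme of myeloid cells, at 7.29 against at most 5.10 elsewhere. Several differences are therefore also given without p110-121 or without the 3 tumors of weakest signal.

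The kinase domain is where the receptors resemble each other most, and the array carries a 60-base probe there for Erbb2, Erbb3 and Erbb4. These probes are shown because they bear on which receptor a signal can be assigned to. The Erbb2 probe lies at chr11:98543549-98543608 (plus strand, build mm7), the Erbb3 probe at chr10:128073907-128073966 (minus strand) and the Erbb4 probe at chr1:68321019-68321078 (minus strand), each in an open reading frame. Capitals in the Erbb2 probe mark bases found in both of the others, and capitals in the Erbb3 and Erbb4 probes mark bases identical to the Erbb2 probe when aligned without gaps.
Erbb2 kinase probe: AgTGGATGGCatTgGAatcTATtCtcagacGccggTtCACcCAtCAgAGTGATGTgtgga
Erbb3 kinase probe: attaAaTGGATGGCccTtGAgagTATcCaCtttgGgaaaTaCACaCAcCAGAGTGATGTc
Erbb4 kinase probe: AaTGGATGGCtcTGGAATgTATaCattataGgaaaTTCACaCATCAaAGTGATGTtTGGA
The Erbb2 probe shared 35 of 56 aligned bases with the Erbb3 probe (62.5%) and 42 of 60 with the Erbb4 probe (70%), and the Erbb3 and Erbb4 probes shared 44 of 56 (78.6%). None of these kinase probes gave the main value of its gene, since each gene was read from its brightest probe, and for all 3 receptors the brightest probe lay farther downstream.
The Erbb4 level rests on a single probe that spans an intron (chr1:68285099-68286327, minus strand, build mm7), shown because no other Erbb4 probe was measured in any tumor.
Erbb4 downstream probe: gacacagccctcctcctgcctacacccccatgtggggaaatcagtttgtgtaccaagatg
The neuregulin probe in the EGF-like domain, the part of the ligand that binds the receptor, lies at chr8:30617036-30617095 (minus strand, build mm7) and is shown because it gave the lowest p of any Nrg1 probe between the Wnt groups.
Nrg1 EGF-domain probe: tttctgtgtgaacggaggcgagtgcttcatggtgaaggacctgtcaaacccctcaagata

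Most ligands were at or near background in these cells, whereas most receptors were not. Hbegf, Erbb3 and Erbb4 were measured in all 17 tumors, Egfr in 15 and Erbb2 in 11. Nrg1 was measured in 5 tumors, Ereg in 4, Tgfa in 2, Areg in 1 and Btc in 0. Over the whole array, 39.3% of genes were measured in at least 9 tumors, as were 5 of the 10 members, and 24% were measured in none. Between 3 members (in p110-98) and 8 members (in each of p75-94 and p75-129) were measured in a tumor, the last being the p75 tumors with the most spots above background. No member had a saturated spot. For a ligand that was not measured the array sets no level, so a low ratio there is not a sign that the ligand was absent.

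**Figure D1:**
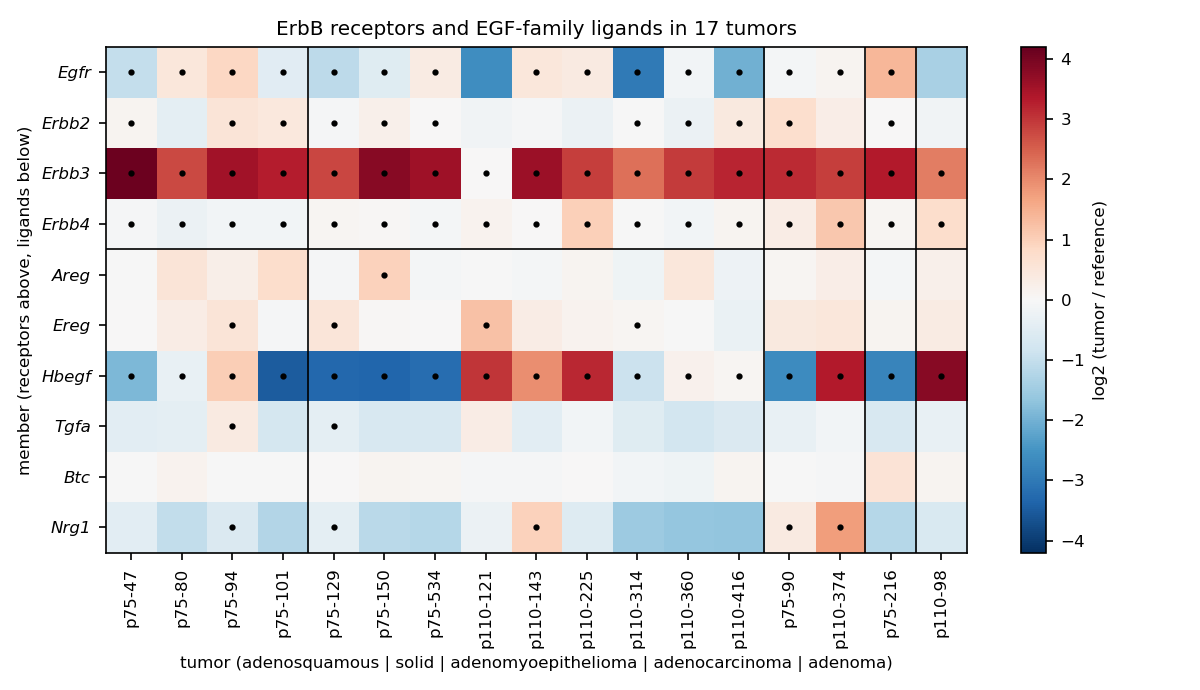
Log2 ratio of tumor over reference for the 10 members (rows, receptors above the line and ligands below) in the 17 tumors (columns, grouped by histology), with a dot where the gene was measured. Erbb3 was high in every tumor but p110-121, Hbegf ran from -3.48 to 3.83, and most cells of the other ligands carry no dot.

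Erbb3 was the receptor farthest above the reference. In the adenosquamous carcinomas it stood at 4.13 in p75-47, 2.78 in p75-80, 3.53 in p75-94 and 3.31 in p75-101. In the 9 solid carcinomas the lowest value was 0.01, the median 2.93 and the highest 3.83. The groups overlapped, and the lowest value was that of p110-121, the tumor with the lowest luminal keratins. The adenomyoepitheliomas were at 3.13 (p75-90) and 2.91 (p110-374), the adenocarcinoma at 3.32 and the adenoma at 2.14. All 16 tumors other than p110-121 were above 2, with a mean of 3.15 ± 0.52 (SD, n = 16). In bulk RNA of captured cells, fewer cells of a type and less RNA per cell cannot be told apart.

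Erbb3 was high on 1 of its 5 probes only. That probe lies farthest downstream (chr10:128069461-128069520, minus strand, mm7) and carries the array's symbol Erbb3 under a predicted transcript that the RefSeq table used here did not hold. The kinase probe shown above was measured in 2 tumors, p110-416 at 1.92 and p75-150 at 0.70, and lay between 0.02 and 0.50 in the others. The second kinase probe was measured in p110-416 alone, at 1.26. The 2 kinase probes, whose positions overlap, followed each other over the 17 tumors (Pearson r = 0.96), and neither followed the downstream probe (r = 0.22 and 0.25). The probe between them and the downstream probe was measured in no tumor and the probe farthest upstream in 3. Erbb3 was therefore placed by its downstream probe, and which of these probes follows the receptor's full transcript was not tested.

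**Figure D2:**
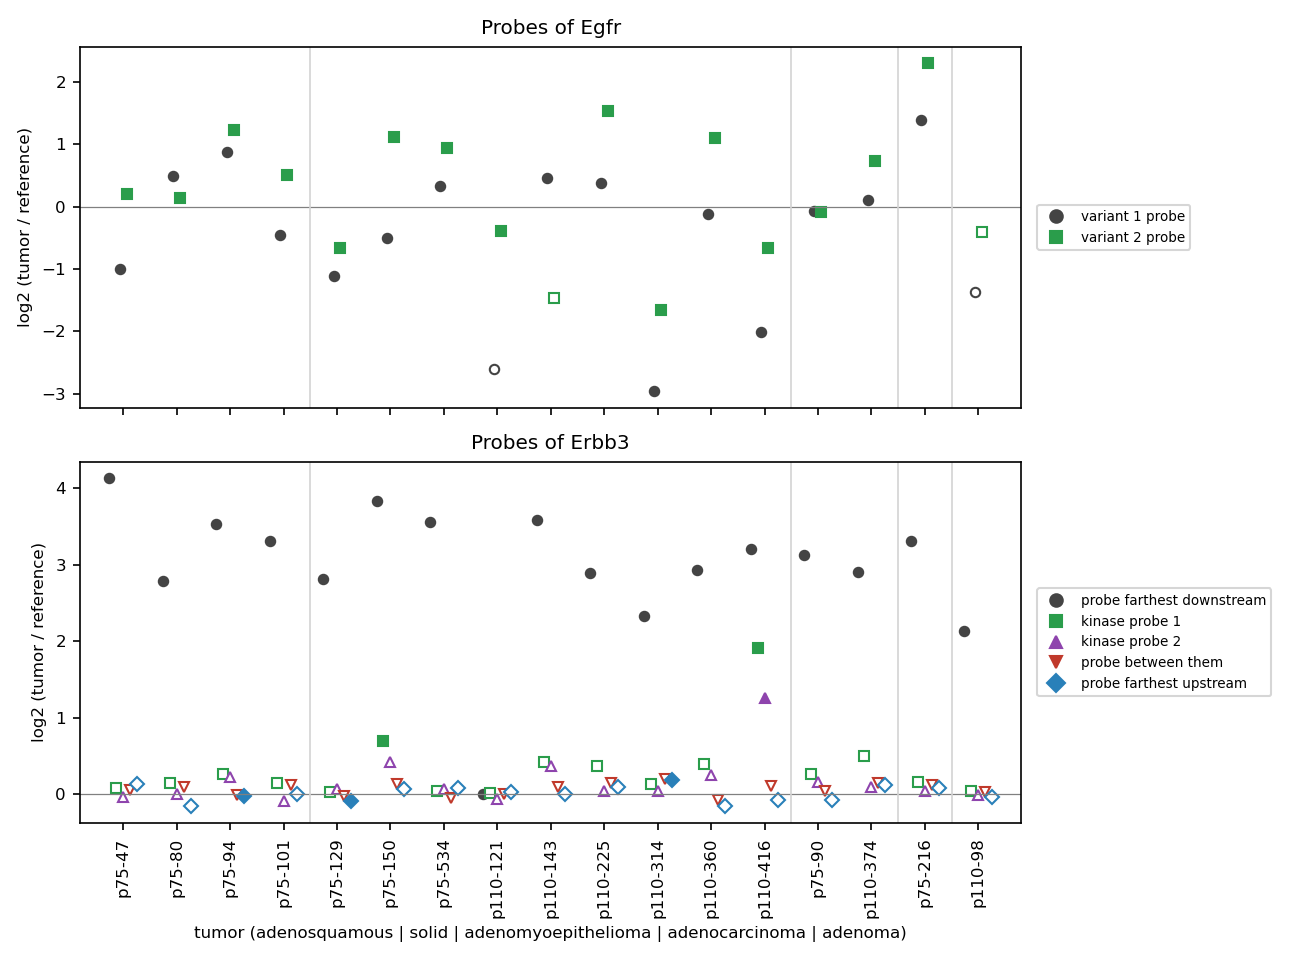
Log2 ratio of tumor over reference in each tumor (x axis, grouped by histology) for the variant 1 and variant 2 probes of Egfr (upper panel) and the 5 probes of Erbb3 (lower panel), with open symbols where a probe was not above background on every array. The variant 2 probe was the higher of the Egfr pair in 14 tumors, and the other 4 probes of Erbb3 read at most 0.70 in every tumor but p110-416.

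Egfr, the receptor for amphiregulin, epiregulin, TGF-alpha, HB-EGF and betacellulin, varied most among the receptors. The brightest of its 6 probes is annotated by the array to transcript variant 1 (chr11:16865821-16865880, plus strand, mm7). It read -1.01 in p75-47, 0.49 in p75-80, 0.88 in p75-94 and -0.46 in p75-101. In the solid carcinomas it ran from -2.96 in p110-314 through a median of -0.50 to 0.46 in p110-143. The adenocarcinoma p75-216 was highest of all at 1.38, and the adenoma p110-98 (-1.36) and p110-121 (-2.60) were not measured. No histological group stood clear of the others.

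A second bright Egfr probe is annotated to transcript variant 2 (chr11:16839391-16839450, plus strand, mm7) and was measured in 15 tumors as well. It was again highest in p75-216, at 2.29, and lowest in p110-314, at -1.66. The 2 probes followed each other (r = 0.68 over 17 tumors, which share arrays and the reference), yet their signs differed in 5 tumors. In p75-150 the variant 1 probe was at -0.50 and the variant 2 probe at 1.11, and in p110-360 they were at -0.12 and 1.10. Ratios of different probes are each relative to the reference, so this pair shows unequal change and not which transcript was more abundant.

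Erbb2, the partner receptor without a known ligand, stayed close to the reference throughout. Its values ran from -0.41 in p75-80, where it was not measured, to 0.70 in p75-90. It was measured in 8 of the 9 p75 tumors and in 3 of the 8 p110 tumors. The highest values after p75-90 were 0.54 in p75-94, 0.46 in p75-101 and 0.41 in p110-416. Of these, p75-94 and p75-101 are adenosquamous and p110-416 is solid, while p75-94 is high-Wnt and p75-101 and p110-416 are low-Wnt. The Erbb2 kinase probe was measured in 1 tumor and did not follow the brightest probe (r = 0.06).

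Erbb4, a neuregulin receptor, lay within 0.35 of the reference in 14 tumors. The exceptions were p110-374 at 1.12, p110-225 at 0.99 and p110-98 at 0.74, and these are the 3 tumors with the fewest spots above background. Across all 17 tumors the Erbb4 ratio fell with the share of spots above background (Pearson r = -0.66, permutation p = 0.00376, adjusted p = 0.0282 over 15 relations, and Spearman rho = -0.57, adjusted permutation p = 0.088). With the 2 tumors of most extreme share dropped, r was -0.69. Within the p110 tumors r was -0.85 (n = 8, adjusted exact p = 0.075) and rho was -0.93 (adjusted exact p = 0.0167), and within the p75 tumors r was -0.10 (n = 9, adjusted exact p = 0.794). The other 2 Erbb4 probes were measured in no tumor and on no reference array.

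Among the ligands Hbegf was measured everywhere and spread the most. HB-EGF activates EGFR and ERBB4 and is shed from the cell surface. The p75 tumors read -1.88 in p75-47, -0.32 in p75-80, -2.63 in p75-90, 1.03 in p75-94, -3.48 in p75-101, -3.30 in p75-129, -3.33 in p75-150, -2.76 in p75-216 and -3.20 in p75-534. The p110 tumors read 3.83 in p110-98, 2.99 in p110-121, 1.96 in p110-143, 3.15 in p110-225, -0.89 in p110-314, 0.18 in p110-360, 3.33 in p110-374 and 0.09 in p110-416. All but 1 of the 9 p75 tumors were below the reference and 7 of the 8 p110 tumors were above it, and 7 p75 tumors lay below the lowest p110 tumor. The SD over the 17 tumors was 2.64, and among the 4547 genes measured in all 17 tumors only 1 had a larger SD (median 0.64). Hbegf has 1 probe on the array, so its values have no check by another probe.

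**Figure D3:**
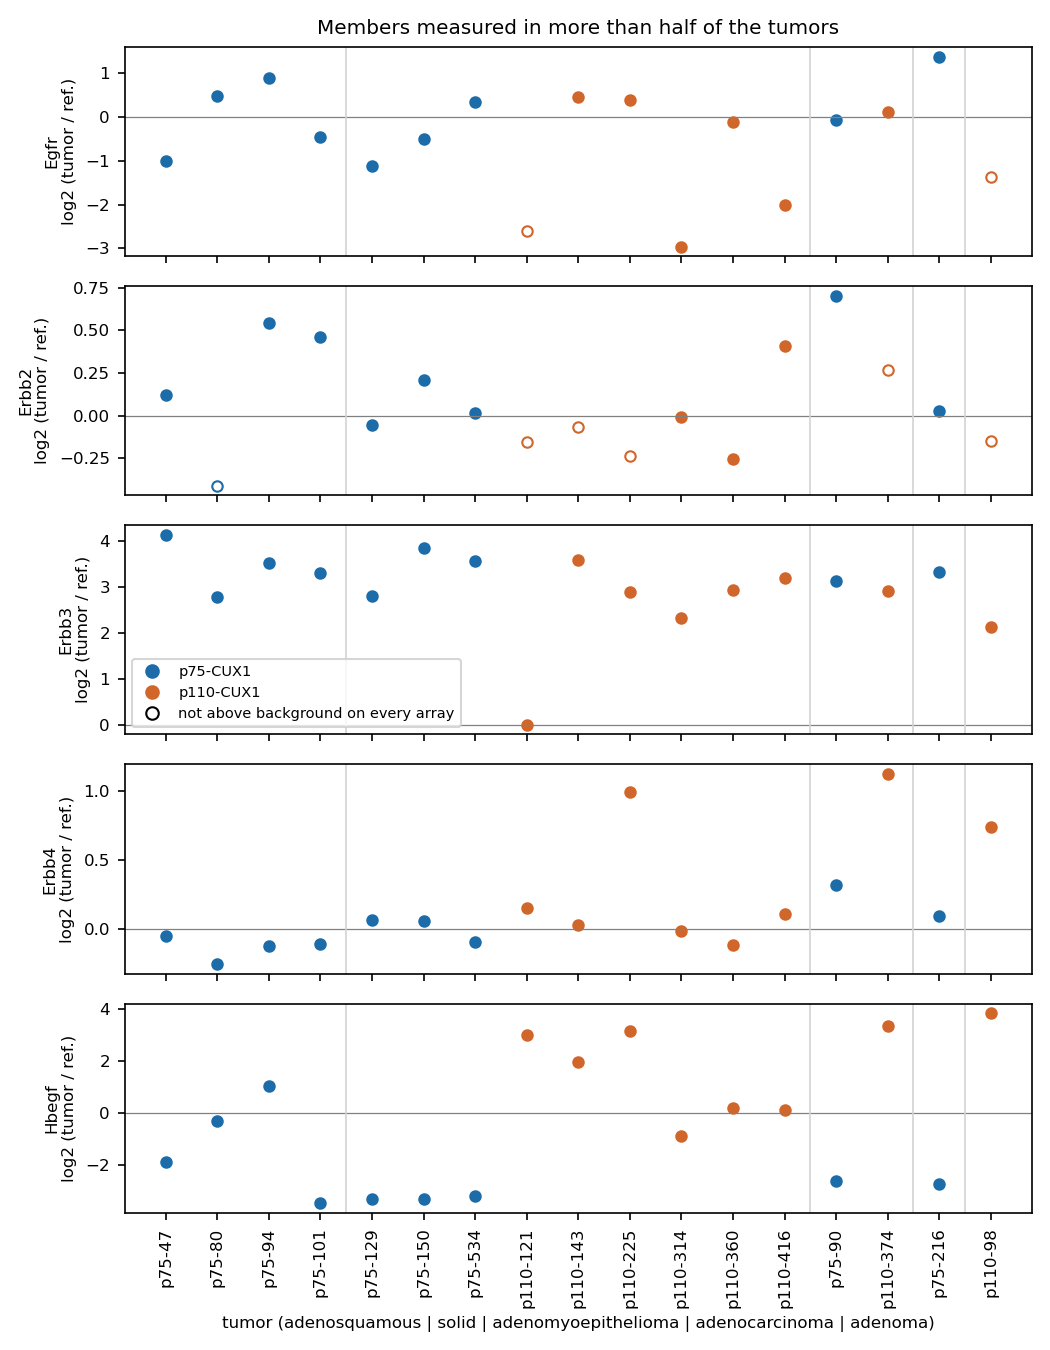
Log2 ratio of tumor over reference (y axes, each on its own scale) in each tumor (x axis, grouped by histology) for the 5 members measured in at least 9 tumors, colored by transgene and open where the gene was not measured. Hbegf splits largely by color, Erbb3 is low in p110-121 alone, and Erbb4 rises above 0.35 in p110-225, p110-374 and p110-98.

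The remaining ligands were measured in a few tumors. Nrg1, the ligand of ERBB3 and ERBB4, read 1.75 in p110-374, 0.98 in p110-143, 0.37 in p75-90, -0.42 in p75-129 and -0.59 in p75-94 where it was measured. Both adenomyoepitheliomas, tumors with a myoepithelial component, were among these. Ereg was measured in p110-121 (1.24), p75-94 (0.53), p75-129 (0.49) and p110-314 (0.09), with the highest value in p110-121, where Lyz2 and 4 other immune markers peaked. Tgfa was measured in p75-94 (0.38) and p75-129 (-0.40). Areg was measured in p75-150 alone (0.97) and its single probe was marked on no reference array. Btc reached 0.56 in the adenocarcinoma p75-216 without being measured, and was within 0.19 of the reference in the others.

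The p75 and p110 tumors were compared to ask whether the 2 CUX1 transgenes went with different levels of the family. Hbegf was lower in the p75 tumors, at -2.21 ± 1.57 (SD, n = 9) against 1.83 ± 1.79 (n = 8). The difference was -4.04 ± 0.78 (SE), which is 16.4-fold lower, with a limma adjusted p of 0.0329 over all genes and an exact two-sided permutation p of 0.000535. The groups overlapped through p75-94 and p75-80 above and p110-314 below. It was the only member called, 1 of 10, where 0.504% of all genes were called (145 genes, 0.299% lower and 0.205% higher, so that 40.7% were higher in the p75 tumors; with median centering in place of loess 1205 were called, 93.3% of them higher). The 3 members with an unadjusted p under 0.05 compare with 13.8% of all genes. No member separated the transgenes without overlap, against 0.208% of genes (0.122% higher and 0.0868% lower), and the median difference of the members was 0.03 against 0.00 over all genes.

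The Hbegf difference kept its direction in every alternative run but not always its call. It ran from -2.79 with median centering to -5.15 when the reference color was not used. Without the 3 tumors of weakest signal, all of them p110 tumors, it was -3.07 and no longer called (limma adjusted p = 0.181). Without p110-121 it was -3.87 (adjusted p = 0.059), and without p75-94 and p75-129 it was -4.34 (adjusted p = 0.0692). These exclusions were chosen after seeing the data.

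Hbegf also moved with the share of spots above background among the p110 tumors. Their r was -0.98 (n = 8, exact p = 0.000198, adjusted p = 0.00297 over 15 relations) and rho was -0.95 (adjusted exact p = 0.0167), and r stayed at -0.96 when the 2 tumors of most extreme share were dropped. Among the p75 tumors r was 0.13 (n = 9, adjusted exact p = 0.794) and over all 17 it was -0.52 (adjusted permutation p = 0.117). Of the 4547 genes measured in all tumors, 122 (2.68%) had an r at or below that of Hbegf in the p110 tumors, and 574 (12.6%) had one at or below that of Erbb4. Tumors of both transgenes were present at shares between 31.8% and 55.2%. There the p110 tumors ran from -0.89 in p110-314 to 2.99 in p110-121 and the p75 tumors from -3.48 in p75-101 to 1.03 in p75-94. At the upper end of this range p75-94 (55.0%) exceeded p110-314 (55.2%), and it also exceeded p110-360 and p110-416, while the other p75 tumors there lay below p110-360 and p110-416. The part of signal strength in the transgene difference was not tested beyond these values. Of other cell types, the 7 immune markers had lower means in the p75 tumors, with a median difference of -0.14. Their summed level ran from 13.7 to 17.4 in the p75 tumors and from 11.5 to 17.2 in the p110 tumors. The 8 fibroblast markers, with a median difference of -0.23 and none called, ran from 13.2 to 17.2 and from 12.3 to 16.5. The 8 basal and myoepithelial markers had a median difference of 0.85 with 6 higher in the p75 tumors, among them the basal keratin Krt14 (2.22, limma adjusted p = 0.151), and summed levels from 15.8 to 18.7 against 12.3 to 18.1. The 6 endothelial markers had a median difference of -0.39 with 5 lower in the p75 tumors, and the 5 adipocyte markers one of -0.45. No basal, endothelial or adipocyte marker was called. The part of any of these cell types in the Hbegf result was not tested.

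**Figure D4:**
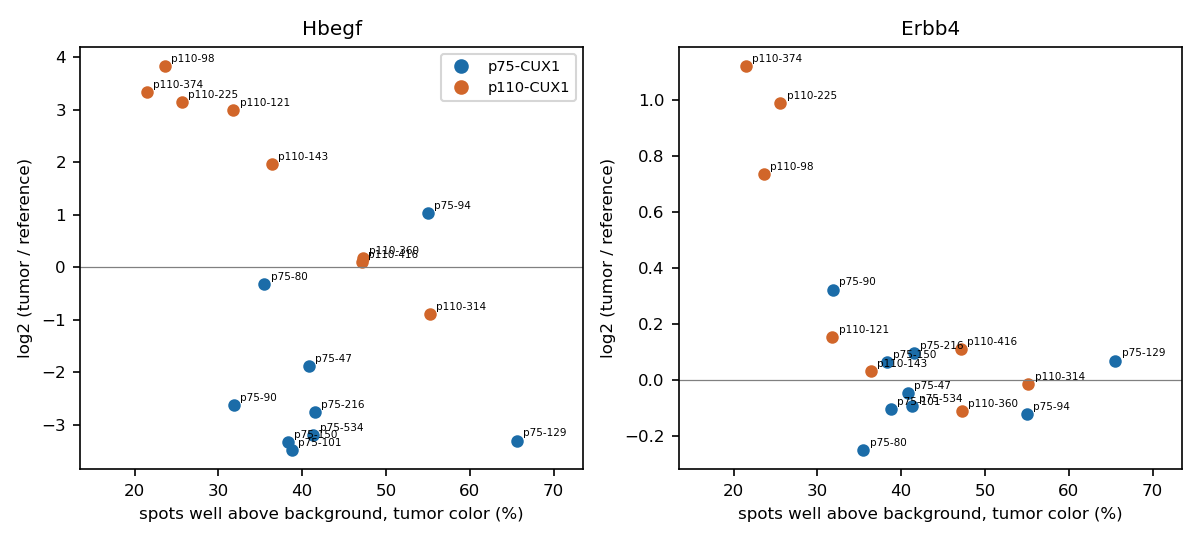
Log2 ratio of tumor over reference (y axis) against the percentage of spots at which the tumor RNA was well above background (x axis) for Hbegf (left) and Erbb4 (right), 1 point per tumor, colored by transgene. Hbegf falls along the p110 tumors from 3.83 in p110-98 to -0.89 in p110-314 and shows no such slope among the p75 tumors, and the 3 highest Erbb4 points lie at the lowest shares.

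The receptors differed less between the transgenes. Erbb3 was 3.38 ± 0.44 (SD, n = 9) in the p75 tumors and 2.50 ± 1.10 (n = 8) in the p110 tumors. Its difference was 0.88 ± 0.38 (SE), which did not pass the threshold over all genes (limma adjusted p = 0.318, exact permutation p = 0.0175), and it was 0.52 without p110-121 (adjusted p = 0.343). Over the 10 alternatives it ran from 0.08 to 1.82 and was never called (smallest limma adjusted p = 0.0552). Egfr differed by 1.0 ± 0.53 (limma adjusted p = 0.432). Its difference was 2.21 and was called with median centering (adjusted p = 0.0359), the setting that called 1205 genes. Erbb4 differed by -0.38 ± 0.17 (limma adjusted p = 0.318), by -0.04 without the 3 tumors of weakest signal, and its sign turned with median centering (0.65) and in the tumor's color alone (0.26). Erbb2 differed by 0.20 ± 0.14 (limma adjusted p = 0.57), and in the tumor's color alone by 0.55, which was called (adjusted p = 0.0494) in a setting that called 1630 genes. Of the ligands that were mostly not measured, none differed with an unadjusted p under 0.05.

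The high-Wnt and low-Wnt tumors were compared to ask whether ErbB genes ran with the Wnt genes that define these groups. No member was called, 0 of 10, where 0.233% of all genes were called (0.163% higher and 0.0695% lower), and 1 member against 12% of genes had an unadjusted p under 0.05. The median difference of the members was 0.32 against 0.02 over all genes, with 8 members higher in the high-Wnt tumors. Hbegf read -1.88, -0.32, 1.03, 3.15 and 3.33 in the high-Wnt tumors p75-47, p75-80, p75-94, p110-225 and p110-374, and in the 7 low-Wnt tumors it ran from -3.48 through a median of -0.89 to 1.96. The groups overlapped, and the difference was 2.30 ± 1.47 (SE, limma adjusted p = 0.572).

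Within each transgene 3 of the 10 members had no overlap between these groups, all higher in the high-Wnt tumors. They were Hbegf, Tgfa and Nrg1 among the p75 tumors and Hbegf, Tgfa and Erbb4 among the p110 tumors. With so few tumors this was common, since 14.8% of all genes did not overlap among the p75 tumors (7.45% higher) and 30.5% among the p110 tumors (18.4% higher). For Hbegf the 3 high-Wnt p75 tumors exceeded the 3 low-Wnt ones by 2.95 on average (exact permutation p = 0.1, the smallest this design allows). The 2 high-Wnt p110 tumors exceeded the 4 low-Wnt ones by 2.90 (exact permutation p = 0.0667, again the smallest possible). With transgene as a block in the fit the difference was 3.06 and was called (limma adjusted p = 0.0479), and the 2 transgenes' differences did not differ by the interaction test (0.04 ± 1.03, SE, adjusted p = 0.993). Over both transgenes together 1.7% of genes and no member had no overlap. Both high-Wnt p110 tumors are among the 3 of weakest signal. Without those 3 the difference without the block was 0.85 (limma adjusted p = 0.937). That fit sets high-Wnt tumors of p75 alone against low-Wnt tumors of both transgenes, so its value also holds the transgene difference. The difference of 2.95 among the p75 tumors involves none of those 3. The spots above background ran from 21.5% to 55.0% in the high-Wnt and from 36.4% to 55.2% in the low-Wnt tumors. Most fibroblast and immune markers were higher in the high-Wnt tumors (median differences 0.60 and 0.13). Most endothelial and luminal markers and all adipocyte markers were lower (-0.55, -0.43 and -0.87), and none of these was called. Squamous and basal markers ran the same way as Hbegf in their means. All 7 squamous markers were higher in the high-Wnt tumors (median difference 1.02), 6 of them with an unadjusted p under 0.05, and 7 of the 8 basal and myoepithelial markers were higher (median 1.71). Of those, Krt14 and Krt17 had an unadjusted p under 0.05, as did the 1 that was lower (Oxtr, -0.57). No squamous or basal marker was called. Of the squamous markers, Ivl was measured in 0 of the 17 tumors, Krt6a and Sprr1b in 3, Krtdap in 4, Krt1 in 5, Lor in 10 and Krt10 in 17. The median of the 7 squamous markers was 2.74 in p75-80 and 0.92 in p75-94. In the high-Wnt tumors p75-47, p110-225 and p110-374 it was 0.08, 0.01 and 0.15. Summed squamous levels ran from 10.2 to 12.8 in the high-Wnt and from 9.68 to 10.0 in the low-Wnt tumors, and basal levels from 17.2 to 18.7 and from 12.3 to 16.7. Neither pair of ranges overlapped. In p75-47, p110-225 and p110-374, however, 2, 2 and 1 of the 7 squamous markers were measured, and from 1 to 2 in the low-Wnt tumors. Most markers in those squamous sums were thus not measured. The part of any of these cell types in the values of Hbegf, Tgfa, Nrg1 and Erbb4 was not tested.

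Tgfa had the lowest p of the members in this comparison, at levels near background. The 5 high-Wnt tumors were at -0.44, -0.41, 0.38, -0.12 and -0.13 for Tgfa, in the order given above, and the low-Wnt tumors lay between -0.78 and -0.43. They overlapped by 1 tumor, p110-143 at -0.43 against p75-47 at -0.44. The difference was 0.49 ± 0.16 (SE, limma adjusted p = 0.208, exact permutation p = 0.00253), with Tgfa measured in 1 of the high-Wnt and 0 of the low-Wnt tumors. Within the transgenes it was 0.55 (p75) and 0.45 (p110). The second Tgfa probe differed by 0.03 between the Wnt groups (limma adjusted p = 0.794 over the 41174 probes) and did not follow the first (r = 0.04). The Nrg1 EGF-domain probe shown above differed by 0.74 (limma adjusted p = 0.112 over the 41174 probes). It was measured in p75-129 alone, a medium-Wnt tumor, while the brightest Nrg1 probe differed by 0.89 ± 0.50 (SE, limma adjusted p = 0.519, exact permutation p = 0.176). Ereg, measured in 1 of the high-Wnt and 1 of the low-Wnt tumors, differed by 0.28 ± 0.16 (SE, limma adjusted p = 0.53, exact permutation p = 0.0354). Its other probe differed by 0.03 (limma adjusted p = 0.909 over the 41174 probes).

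Erbb4 was high in both high-Wnt p110 tumors and in the medium-Wnt p110-98, which are the 3 tumors of weakest signal. The 2 high-Wnt p110 tumors averaged 1.06 and the 4 low-Wnt ones 0.00, while the p75 averages were -0.14 and -0.05. The interaction was -1.15 ± 0.19 (SE) and missed the threshold over all genes (limma adjusted p = 0.0582, with 18 genes called). It has no value without the 3 weakest tumors, which leave no high-Wnt p110 tumor. The Erbb4 difference between the Wnt groups was 0.36 ± 0.22 over both transgenes (SE, limma adjusted p = 0.555) and turned to -0.12 without them (adjusted p = 0.735). Egfr (0.92 ± 0.68), Erbb2 (-0.05 ± 0.19) and Erbb3 (-0.00 ± 0.48) had limma adjusted p values from 0.633 to 1, and the signs of Erbb2 and Erbb3 depended on which tumor was left out. The Egfr difference kept its sign but ran from 0.02 to 1.22 over the 24 alternatives.

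Adenosquamous and solid carcinomas were compared because the study's interest began with the adenosquamous type. No member was called, 0 of 10, and 0% of all genes were called, while 0 members and 5.5% of genes had an unadjusted p under 0.05. The median difference of the members was 0.08 against -0.01 over all genes. Egfr was -0.03 ± 0.86 (SD, n = 4) in the adenosquamous and -0.90 ± 1.33 (n = 9) in the solid carcinomas, a difference of 0.88 ± 0.67 (SE, limma adjusted p = 0.875). Erbb3 differed by 0.64 ± 0.56 (limma adjusted p = 0.881), and by 0.29 without p110-121 (adjusted p = 0.876). No member separated the groups without overlap, where 0.417% of genes did. Of the 7 squamous markers 6 were higher in the adenosquamous carcinomas with an unadjusted p under 0.05 and none was called (limma adjusted p = 0.875 for those 6). Ivl, 1 of the 6, was measured in 0 tumors. The median of the 7 was 2.74 in p75-80 and 0.92 in p75-94. It was 0.08 in p75-47 and -0.05 in p75-101, where 2 of the 7 were measured in each. Of the 8 basal and myoepithelial markers 5 were higher (median difference 1.19), with the lowest p for Krt14 (3.49, limma adjusted p = 0.518), and none was called. The part of these cells in the members' values was not tested.

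The histological comparison of Hbegf turned with the transgene. Adenosquamous minus solid was -0.90 ± 1.52 (SE, limma adjusted p = 0.929) without regard to transgene, and -0.49 without p110-121 (adjusted p = 0.962). With transgene as a block it was 2.31 (limma adjusted p = 1 over all genes). Within the p75 tumors alone the 4 adenosquamous carcinomas averaged -1.16 and the 3 solid carcinomas -3.28, a difference of 2.12 (exact permutation p = 0.171, smallest possible 0.0286). The groups overlapped through p75-101 at -3.48, the adenosquamous carcinoma that the study placed among the low-Wnt tumors.

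**Figure D5:**
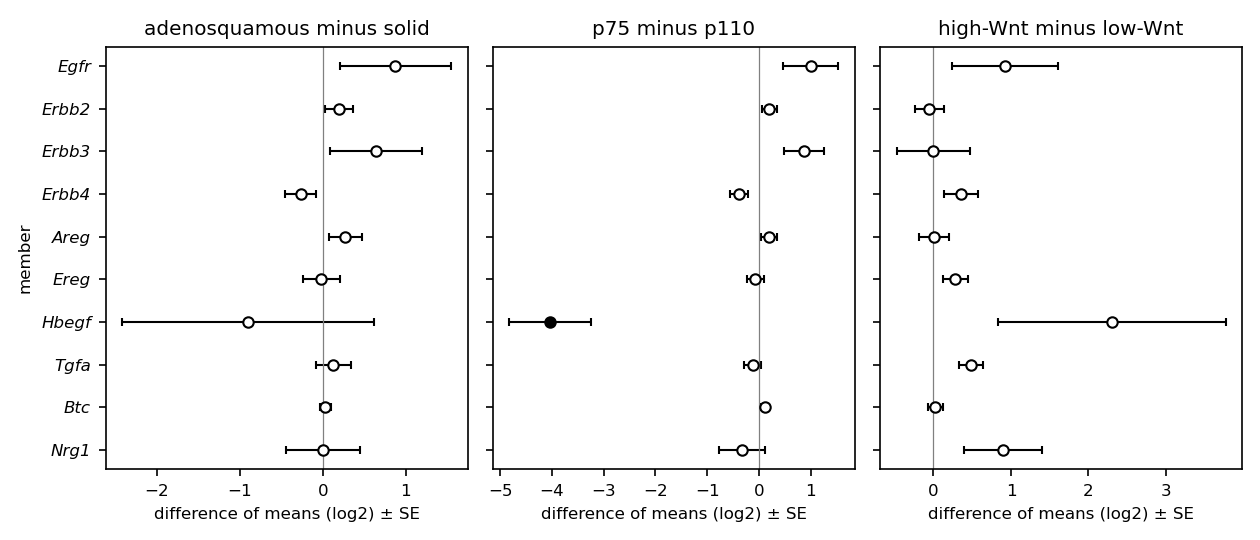
Difference of group means (log2, x axis) with its standard error for the 10 members (y axis) between adenosquamous and solid carcinomas, p75 and p110 tumors, and high-Wnt and low-Wnt tumors, filled where the adjusted p over all genes was under 0.05. Hbegf between p75 and p110 tumors, at -4.04, is the single filled point, and the x axes differ in range.

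The other genes of the pathway were described from a list of 32 in which 31 had a probe (Nrg2 had none under that symbol). Of these, 17 were measured in at least 9 tumors and 3 in none. None was called in any of the 3 comparisons. Unadjusted p values under 0.05 were found for 2 of 31 between histological types, 2 between transgenes and 5 between Wnt groups, against 5.5%, 13.8% and 12% of all genes. The median differences were 0.12, 0.01 and 0.01.

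Among the further ligands Epgn (epigen, an EGFR ligand) had the lowest p between histological types. It read 1.33 in p75-47, 5.96 in p75-80, 4.28 in p75-94 and 0.29 in p75-101, and from -0.08 to 2.03 in the solid carcinomas. The 2 highest values of the series were those of p75-80 and p75-94, both adenosquamous and high-Wnt. The same tumors had the highest squamous markers, with medians of 2.74 and 0.92 against at most 0.15 elsewhere, and the part of squamous cells in Epgn was not tested. The difference was 2.41 ± 0.82 (SE, limma adjusted p = 0.875). Of the shedding genes Rhbdf1, an inactive rhomboid protein that helps ADAM17 mature, differed by -0.13 between transgenes (limma adjusted p = 0.388) and was measured in 2 of the 17 tumors.

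Among the feedback inhibitors, Spry4, a Sprouty inhibitor of receptor signaling, lay between -0.20 and 0.08 in the p75 tumors and between -1.04 and 0.05 in the p110 tumors, a difference of 0.50 ± 0.11 (SE, limma adjusted p = 0.0571), but was measured in p110-314 alone. Phlda1, induced by ERK signaling, was measured in all 17 tumors. It was 2.16 ± 0.82 (SD, n = 9) in the p75 tumors, where the lowest was 1.09, and 0.24 ± 1.5 (n = 8) in the p110 tumors, where p110-416 reached 3.02. Its difference was 1.92 ± 0.56 (SE, limma adjusted p = 0.125).

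Between Wnt groups Fosl1, a subunit of AP-1, ran from -1.27 to -0.31 in the high-Wnt tumors and from -2.42 to -1.40 in the low-Wnt tumors. These ranges did not overlap, and the difference was 1.12 ± 0.23 (SE, limma adjusted p = 0.0576), though of these tumors its probe was measured in p75-94 and p110-314 alone. Ier3, an immediate early gene, was higher by 0.82 ± 0.24 (limma adjusted p = 0.162) and Etv4, an ETS factor downstream of ERK, by 0.28 ± 0.07 (limma adjusted p = 0.125). Ier3 was measured in 8 of the 17 tumors and Etv4 in 6. Between histological types Myc was higher by 0.68 ± 0.30 in the adenosquamous carcinomas and Etv4 by 0.19 ± 0.10 (limma adjusted p = 0.875 for both). Outside the naming rule and chosen after its value was seen, the adaptor Grb2, which links receptors to RAS, was measured in all 17 tumors and was lower in the high-Wnt tumors by point estimate (difference -0.61 ± 0.21, limma adjusted p = 0.241), as Socs3, a feedback inhibitor, was higher (1.15 ± 0.43, limma adjusted p = 0.287). None of these passed the threshold.

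Genes whose ratios ran most like those of a member were listed for the 5 members measured in at least 9 tumors, among 8645 genes or 1 more. All points share the reference and the arrays of a tumor. Egfr ran most like Col17a1 (r = 0.92), Pkp1 (0.87) and Gpc4 (0.85). Erbb3 ran most like Traf4 (0.92), Btbd6 (0.90) and Bspry (0.89), which were 0.69, 0.70 and 0.59 without p110-121, and Erbb2 less closely like Carm1 (0.77), Pms1 (0.76) and Echs1 (0.74). Hbegf ran most like Cd248 (0.97), Klhl30 (0.93) and Ggta1 (0.93), of which Ggta1 reached 0.998 among the p110 tumors and 0.64 among the p75 tumors. Erbb4 ran most like Foxq1 (0.99), Sprr2k (0.95) and Cplx2 (0.95). Over all 17 tumors these genes correlated with the share of spots above background, with r between -0.59 and -0.67 for the genes like Hbegf and between -0.67 and -0.77 for those like Erbb4.

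The 5 members measured in at least 9 tumors did not move as 1 group. Over the 17 tumors the largest correlations between them were 0.61 for Erbb4 with Hbegf, 0.56 for Egfr with Erbb3 and -0.49 for Erbb3 with Hbegf. Within the p75 tumors these were -0.47, -0.16 and -0.04, and within the p110 tumors 0.76, 0.62 and -0.27. Without p110-121 they were 0.65, 0.38 and -0.43 over the other 16 tumors. The signs of the Erbb4 and Hbegf pair and of the Egfr and Erbb3 pair were opposite in the 2 transgenes. The tumor p110-121 was low for both Egfr and Erbb3, and their r among the p110 tumors without it was 0.56.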

How the data were processed

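The authors scanned 38 two-color arrays with Agilent Feature Extraction and analyzed them with limma. The deposited scanner files hold spot intensity values per color, and the authors' value table holds log2 ratios per tumor, used here as an alternative. Probe positions are on mm7, per the file headers. Intensities were background-corrected (normexp, offset 50) and loess-normalized with limma 3.58.1 in R 4.3.3. Outlier spots (0.545%) were left out. Ratios were turned to tumor over reference and averaged over dye swaps to 1 value per tumor. Each gene took its brightest probe. Of the 41174 probes, 22951 matched a RefSeq symbol and others kept the array's symbol. Groups were fitted over all 17 tumors with lmFit and eBayes, with Benjamini-Hochberg adjustment at 0.05 over 28786 genes, two-sided. Single members also received exact permutation tests. The fits were tested on simulated data. The number of tumors limits precision, and the part of technical error in the spread was not tested. Pathway genes were named by a rule: those called, otherwise the 3 of smallest p per comparison. The members and lists were chosen with earlier results of these data known. A dye difference (Cy5 minus Cy3) cancels in each tumor's mean; it was above 0 in all 17 tumors for Hbegf (0.50 to 1.46) and below 0 in all 17 for Erbb4 (-2.02 to -0.44). The tumors come from different mice. The value of 1 marker gene is not reported here.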

Additional observations from a re-analysis of the deposited data

Results flagged for a closer look

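Single tumors that stood far from the rest of their group were sought in 70 sets of values (10 members in each of 7 groups, which hold 4 to 9 tumors), and 9 were found, where chance gives about 1 in 20. Erbb3 in p110-121 (0.0094) was lowest of the 9 solid carcinomas, next to 2.33, and lowest of the 8 p110 tumors, next to 2.14. The same tumor had the lowest Krt8 and Krt18 of the series. Erbb4 in p110-225 (0.99) was highest of the solid carcinomas, next to 0.15 in p110-121, and p110-225 had the fewest spots above background among them (25.6%). Nrg1 was highest in p110-374 (1.75) among the 5 high-Wnt tumors, next to -0.44, and in p110-143 (0.98) among the 7 low-Wnt tumors, next to -1.14. Tgfa in p75-94 (0.38) was highest of the 9 p75 tumors, next to -0.31, and was measured there. Erbb2 in the adenomyoepithelioma p75-90 (0.70) was highest of the 5 medium-Wnt tumors, next to 0.03. Btc was highest in p75-216 (0.56) among the p75 tumors and in p75-80 (0.16) among the 4 adenosquamous carcinomas, and was measured in neither.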

How the results depend on the processing

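The Hbegf difference between transgenes was called in 7 of 10 alternatives. Alternatives that left out the 3 weakest tumors, p110-121, or p75-94 and p75-129 were chosen after seeing the data. Between transgenes the genes called numbered 218 without background correction, 1205 with median centering, 1630 in the tumor's color, 86 without the 3 weakest tumors and 10 without p75-94 and p75-129. Members called numbered 2 with median centering and in the tumor's color, and 0 under each of the 3 exclusions. Between Wnt groups the genes called numbered 0 without background correction and with median centering, 7 in the tumor's color, 143 in a fit of the 2 groups, 125 with transgene as a block (1 member, Hbegf), 40 without the 3 weakest tumors, 115 without p110-121 and 30 without p75-94 and p75-129, and from 7 (without p110-360) to 93 (without p75-534) with each tumor left out. Between histological types 1 gene was called without p75-94 and p75-129, and 0 to 31 (the most without p75-101) with each tumor left out. Signs turned for members near background and also for Erbb4, Erbb3, Erbb2 and Hbegf. Between histological types Erbb4 was 0.0095 with median centering and 0.38 in the tumor's color, where Ereg was 0.74, Btc -0.21 and Nrg1 -0.16. With probes averaged Ereg was 0.046 and Btc -0.00470. With transgene as a block Hbegf was 2.31, Ereg 0.022 and Btc -0.040. Without p75-94 and p75-129 Nrg1 was -0.024 and Tgfa -0.10. Between transgenes median centering gave Erbb4 0.65, Ereg 0.13, Tgfa 0.020, Btc -0.014 and Nrg1 0.20, the tumor's color gave Erbb4 0.26, Ereg 0.92, Tgfa 0.033, Btc -0.15 and Areg -0.033, and Ereg was 0.063 without p110-121 and Nrg1 0.057 without the 3 weakest. Between Wnt groups Erbb4 was -0.40 with median centering and -0.12 without the 3 weakest, Erbb3 0.49 in the tumor's color, 0.049 with slide as a block and 0.23 without the 3 weakest, Btc -0.028 in the tumor's color, and Areg -0.032 with transgene as a block and -0.00148 without p75-94 and p75-129. With each tumor left out, the histological differences ran from -0.013 to 0.051 (Btc), -0.13 to 0.11 (Ereg), -0.13 to 0.23 (Nrg1) and -0.10 to 0.28 (Tgfa), and the Wnt differences from -0.072 to 0.13 (Areg), -0.015 to 0.043 (Btc), -0.17 to 0.064 (Erbb2) and -0.22 to 0.12 (Erbb3). The causes of these changes were not tested. No paired analysis was possible because the replicate numbers were given in accession order and mark no shared animal or batch. Ratios of members not above background set no level.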
